A study of Mus musculus with 6 samples.

Results

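Transcripts of 10 mitophagy receptors and regulators were measured by RNA-seq in mouse embryonic fibroblasts (MEFs) exposed to small molecules that act on mitofusins. The members were listed by name, as Pink1, Bnip3, Bnip3l, Fundc1, Fkbp8, Optn, Tbk1, Sqstm1, Usp30 and Mul1, and make up 10 of the 55291 genes listed in the count table. The 6 libraries came from WT MEFs in 3 groups of 2: vehicle, MASM7, a mitofusin activator, and MFI8, a mitofusin inhibitor. All groups shared the WT genotype and carried no other allele or agent in the labels. The study's figure legend for the expression data gives a much higher concentration for MFI8 than for MASM7 over the same number of hours. A difference between the compounds and a difference between their concentrations therefore cannot be told apart. The WT MEFs were supplied by another laboratory, and whether the replicates of a group came from separate embryos or from separate dishes of 1 line is not given in the sources used here. The p-values therefore measure only the spread between these libraries.

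Mitophagy is the selective delivery of mitochondria to the lysosome. In one arm, the kinase PINK1 builds up on the outer membrane of depolarised mitochondria and starts the building of ubiquitin chains there, and the chains are then read by adaptors such as p62 (Sqstm1) and optineurin (Optn), which also bind LC3 on the forming autophagosome. In the other arm, proteins already anchored in the outer membrane, among them BNIP3, NIX (Bnip3l), FUNDC1 and FKBP8, bind LC3-family proteins themselves. Mitofusins are outer membrane GTPases that fuse mitochondria, and they are themselves marked with ubiquitin during mitophagy.

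The libraries held between 22791792 and 30677751 counts, with counts for 20599 to 21558 genes each. Of 12 fibroblast markers, 10 were above 1 TPM in every library, while Thy1 and Postn were below it. The summed fibroblast marker level was 4330 to 5330 TPM with vehicle, 4820 to 5410 TPM with MASM7 and 4340 to 5070 TPM with MFI8. Of 6 leukocyte markers only Cd68 passed 1 TPM in every library, with a summed level between 9 and 11.9 TPM over all libraries. No epithelial, endothelial or erythroid marker passed 1 TPM in every library, and all 4 muscle markers had no counts. Among 4 neural markers, Map2 passed, and the summed level was 4.18 to 5.83 TPM. RNA of a whole dish was measured, so fewer cells with a transcript and less of it per cell cannot be told apart.

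All 10 members were transcribed in the vehicle-treated fibroblasts, at levels far apart. On the TPM scale, which divides by transcript length and so allows genes to be compared, Sqstm1 had the highest vehicle mean at 225 TPM, at or above 94.7% of the 14710 genes that reached 1 TPM in 2 libraries. Fkbp8 followed at 125 TPM, Fundc1 at 65.1 TPM, Bnip3l at 62.2 TPM and Tbk1 at 55.6 TPM. Usp30 and Mul1, at 26.5 and 26.3 TPM, overlapped between their vehicle libraries and had no order. Bnip3 at 20.7 TPM, Optn at 17.2 TPM and Pink1 at 12.4 TPM closed the order, with Pink1 at or above 43% of the same genes. Apart from Usp30 and Mul1, neighbours in the vehicle order did not overlap between libraries.

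The order differed at a few places with the compounds. Bnip3 was above Optn in both vehicle libraries, at 20.5 and 21 TPM against 17.1 and 17.3 TPM. With MFI8 the lower Optn library, at 17.7 TPM, lay above the higher Bnip3 library, at 17.4 TPM. With MASM7 the mean levels were 17.1 TPM for Optn and 16.4 TPM for Bnip3, and their libraries overlapped. Bnip3l and Tbk1 overlapped with either compound, whereas Mul1 (28.8 TPM with MASM7 and 29.3 TPM with MFI8) stood above Usp30 (26.7 and 25.9 TPM) without overlap. Sqstm1 and Fkbp8 kept the first and second places in each group, and Pink1 kept the last.

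**Figure D1:**
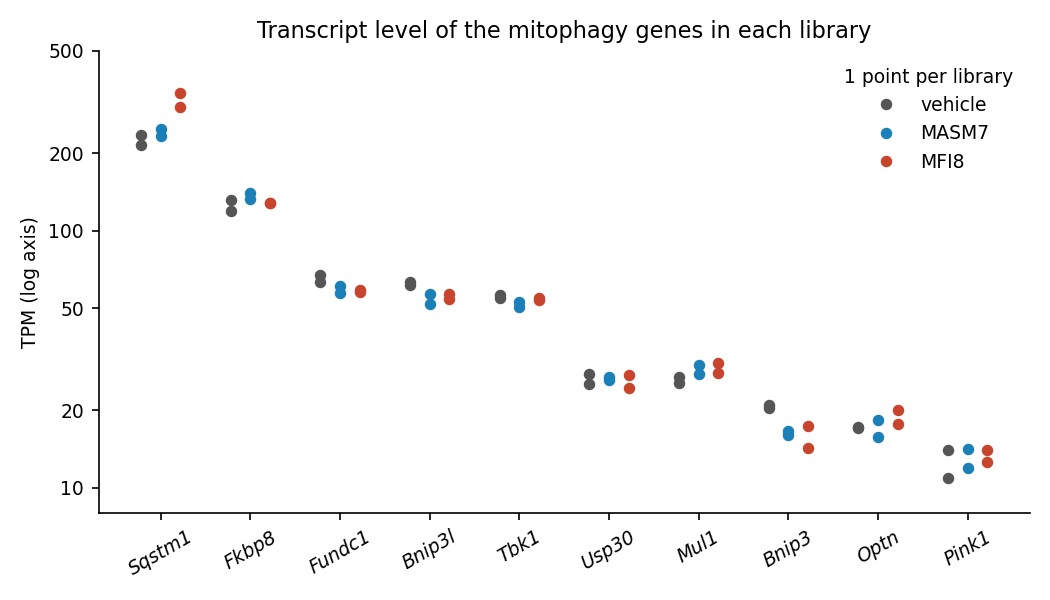
Level of each mitophagy member in each of the 6 libraries, as TPM on a log10 axis, with 1 point per library and colours for vehicle, MASM7 and MFI8. Sqstm1 sat highest in each library, from 216 to 344 TPM, and Pink1 lowest.

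The genes of the compounds' targets were well covered: Mfn1 was at 111 and 109 CPM with vehicle, 102 and 100 CPM with MASM7 and 106 and 101 CPM with MFI8. Mfn2 was at 119 and 119 CPM with vehicle, 117 and 122 CPM with MASM7 and 123 and 126 CPM with MFI8. Neither mitofusin gene passed the adjusted threshold against vehicle.

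The first question was whether inhibiting mitofusins changed the transcripts of the mitophagy machinery. In edgeR's quasi-likelihood test, adjusted over all genes by the Benjamini-Hochberg method with a threshold of 0.05, none of the 10 members was called with MFI8 against vehicle, where the background was 0% of the 14290 genes tested. At an unadjusted p under 0.05, 4 members passed, against 9.86% of all genes. Sqstm1 was the 1 that was higher, where 5.21% of all genes were, and Bnip3, Bnip3l and Fundc1 were the 3 that were lower, where 4.65% of all genes were. With offsets for GC content and length, 2 members passed unadjusted, Sqstm1 and Bnip3. The DESeq2 Wald test called 1 member, Sqstm1, and limma on log2 TPM called none. With the replicate number as a block, edgeR called 3 members, Sqstm1 higher and Bnip3 and Bnip3l lower, among 720 of the 14290 genes. No label ties these numbers to a batch. For MASM7, the activator, edgeR without the block also called none of the members, against a background of 0%. There 3 passed unadjusted, against 10.2% of all genes. Fkbp8 was higher, where 5.32% of all genes were, and Bnip3 and Bnip3l were lower, where 4.88% of all genes were. With the offsets for GC content and length, 1 passed unadjusted, Bnip3. DESeq2, limma and edgeR with the block, which called 554 genes, called no member there. The comparisons with vehicle use the same vehicle libraries, so their values are set side by side below without counting what they share.

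Group separation was read against the same background. With MFI8, 7 of 10 members had libraries that did not overlap those of vehicle, where 40.2% of all genes did so. Optn, Sqstm1 and Mul1 were higher (20.9% of all genes), and Bnip3, Bnip3l, Fundc1 and Tbk1 were lower (19.3% of all genes). With MASM7 it was also 7 of 10, against 42.8% of all genes. Fkbp8, Sqstm1 and Mul1 were higher (21.2% of all genes), and Bnip3, Bnip3l, Fundc1 and Tbk1 were lower (21.6% of all genes). An exact permutation test of 2 against 2 libraries cannot go below p = 0.333, so no single gene could pass one here. The members' median log2 fold change was -0.03 with MFI8 and 0.02 with MASM7, beside medians of 0.0027 and 7e-04 over all genes tested.

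**Figure D2:**
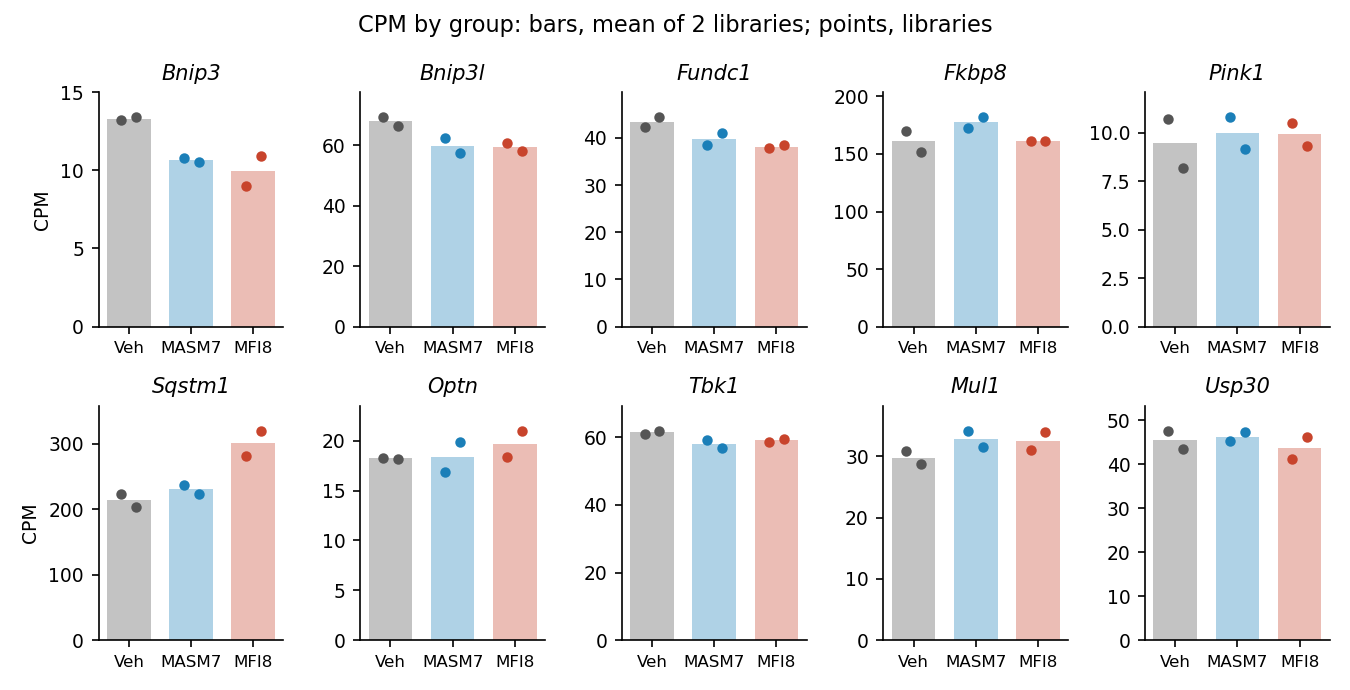
CPM of each member in each library, 1 panel per gene with its own axis from 0, with points for libraries and bars for group means. The MFI8 libraries of Sqstm1 stood at 281 and 320 CPM, above both other groups, and Bnip3 was lower with each compound than in both vehicle libraries.

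Sqstm1 encodes p62, the adaptor that ties ubiquitinated cargo to LC3 and is itself degraded by autophagy. The gene lies on chromosome 11 at 50199366 to 50210827, minus strand, of GRCm38. It was at 224 and 204 CPM with vehicle (5114 and 5125 counts), 237 and 224 CPM with MASM7 (7020 and 6822 counts) and 281 and 320 CPM with MFI8 (6445 and 9880 counts). Both MFI8 libraries were above every other library, while the lower MASM7 library nearly equalled the higher vehicle library. With MFI8 the level was 1.4 times that of vehicle (95% interval 1.25 to 1.57), a log2 fold change of 0.49 with a standard error of 0.07, and the edgeR adjusted p was 0.0924. That p missed the threshold although the gene ranked 5 of 14290 by p, and over 17 alternatives the adjusted p ran from 2.38e-13 to 0.401. The DESeq2 Wald test gave an adjusted p of 5.04e-06 for the same difference, and limma on log2(TPM + 1) gave 0.401. With MASM7 the log2 fold change was 0.11 with a standard error of 0.07 (95% interval -0.06 to 0.27), with an edgeR adjusted p of 0.604. Offsets for GC content and length brought the MASM7 value to 0.055, and leaving out 1 library at a time gave 0.042 to 0.18.

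MFI8 replicate 2 was the higher of its pair. Without it the Sqstm1 log2 fold change against vehicle was 0.39, with an edgeR adjusted p of 0.195. Without MFI8 replicate 1 it was 0.58, and the edgeR adjusted p was 0.0106. Each of these fits leaves 1 MFI8 library, which is assumed to vary like the other groups. The 2 values straddle the 0.49 of all libraries and share its direction. The summed level of the 10 members was 653 and 620 TPM with vehicle, 651 and 637 TPM with MASM7 and 696 and 748 TPM with MFI8. Of that sum, Sqstm1 made up 35.9% and 34.8% in the vehicle libraries, 38.1% and 36.6% in the MASM7 libraries and 43.3% and 45.9% in the MFI8 libraries.

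Part of the Sqstm1 transcript lies over another gene. Of its exonic bases, 580 (17.3%) are shared with exons of Mrnip, a protein-coding gene on the opposite strand, and the kit named in the labels does not by itself mark strand, so reads of the partners cannot be told apart there. Mrnip was at 3.77 and 3.14 CPM with vehicle, 3.41 and 3.85 CPM with MASM7 and 3.44 and 2.98 CPM with MFI8. For Mrnip, MFI8 against vehicle gave -0.11 on the log2 scale with a standard error of 0.20, and the edgeR adjusted p was 0.892.

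Bnip3 encodes an outer membrane receptor of the BCL2 family that is a classic target of hypoxia-inducible factor. It lies on chromosome 7 at 138890836 to 138909519, minus strand. Its level was 13.2 and 13.4 CPM with vehicle, 10.8 and 10.5 CPM with MASM7 and 9.01 and 10.9 CPM with MFI8, from 207 to 337 counts per library. The vehicle libraries were above all 4 treated libraries, and the groups of the compounds overlapped each other. With MFI8 the level was 0.753 times that of vehicle, a log2 fold change of -0.41 with a standard error of 0.12 (95% interval -0.67 to -0.14) and an edgeR adjusted p of 0.358. With MASM7 it was 0.799 times that of vehicle, a log2 fold change of -0.32 with a standard error of 0.12 (95% interval -0.59 to -0.06) and an edgeR adjusted p of 0.473. The MFI8 libraries were less alike for Bnip3, differing by 0.28 on the log2 scale, than the vehicle libraries, which differed by 0.02. Without MFI8 replicate 1 the log2 fold change was -0.28, and without MFI8 replicate 2 it was -0.56. With the replicate number as a block, edgeR gave -0.41 with MFI8 (adjusted p = 0.0262) and -0.32 with MASM7 (adjusted p = 0.0796). Of its exonic bases, 504 (22.3%) are shared with Gm45507, an antisense gene that had no counts in the 6 libraries. The strand setting is not given, so whether reads over the shared bases were assigned or dropped cannot be told.

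The start regions of the members with the largest differences are shown because Sqstm1 and Bnip3 are known targets of stress-responsive transcription factors, NRF2 and HIF. The sequences are from RefSeq on GRCm38.p6, run 5′ to 3′ on the strand of the gene, and reach from 250 bases before to 50 bases after the start. The first is chr11:50210771-50211070 and the second chr7:138909457-138909756, both on the minus strand. Capitals mark CACGTG, the palindromic E-box, which contains the hypoxia response element core ACGTG on both strands.
Sqstm1: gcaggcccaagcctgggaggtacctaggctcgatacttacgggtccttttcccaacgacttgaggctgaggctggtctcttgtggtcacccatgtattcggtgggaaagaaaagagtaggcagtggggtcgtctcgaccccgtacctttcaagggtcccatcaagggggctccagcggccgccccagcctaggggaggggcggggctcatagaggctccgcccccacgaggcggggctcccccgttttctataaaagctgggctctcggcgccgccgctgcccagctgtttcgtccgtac
Bnip3: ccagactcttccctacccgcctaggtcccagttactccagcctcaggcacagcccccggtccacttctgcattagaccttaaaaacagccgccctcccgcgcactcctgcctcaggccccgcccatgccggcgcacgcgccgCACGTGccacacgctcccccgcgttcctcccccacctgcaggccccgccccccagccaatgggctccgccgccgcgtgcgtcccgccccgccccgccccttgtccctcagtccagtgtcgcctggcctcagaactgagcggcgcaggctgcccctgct

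Entries were found for 9 of the 10 members, all but Bnip3l. The windows of Fundc1 and Usp30 lay wholly inside their GENCODE genes, so bases before those genes' 5′ ends were not searched. The end of the Optn window was in none of its GENCODE transcripts. The core ACGTG, searched on both strands, was in the windows of Bnip3, Fkbp8, Tbk1 and Mul1 and in 19.6% of all 32851 windows of that length. CACGTG, which overlaps it, was in those of Bnip3, Tbk1 and Mul1 and in 7.15% of all. The antioxidant response element core TGACNNNGC was in 12.4% of all windows and in none of the 9 members' windows, Sqstm1 included, which says only that these letters are not in this stretch. In Bnip3 the first base of CACGTG was at -108 from the start, in Mul1 at -111 and in Tbk1 at 6, and the ACGTG of Fkbp8 began at -65. The bases around the match in the other members were as follows, with the match in capitals, at chr4:138434544-138434583 on the plus strand for Mul1, chr10:121586767-121586806 on the minus strand for Tbk1 and chr8:70527661-70527699 on the plus strand for Fkbp8.
Mul1: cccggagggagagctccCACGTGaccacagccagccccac
Tbk1: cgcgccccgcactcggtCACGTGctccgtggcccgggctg
Fkbp8: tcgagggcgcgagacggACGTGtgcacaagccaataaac

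The members that hold these letters did not share a direction. Bnip3 and Tbk1 were lower with each compound, and Mul1 was higher with each. Fkbp8 was at 0.0027 with MFI8 and higher with MASM7. In edgeR without the replicate block, none of these differences passed the adjusted threshold.

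Bnip3l encodes NIX, the closest relative of BNIP3 and the receptor that clears mitochondria from maturing red cells. It lies on chromosome 14 at 66985239 to 67008877, minus strand, and was at 69.3 and 66.5 CPM with vehicle, 62.5 and 57.3 CPM with MASM7 and 60.6 and 58.2 CPM with MFI8. As for Bnip3, both vehicle libraries were above all treated libraries. The log2 fold change was -0.19 with a standard error of 0.07 with MFI8 (edgeR adjusted p = 0.412) and -0.18 with a standard error of 0.07 with MASM7 (edgeR adjusted p = 0.473). Leaving out 1 library at a time gave -0.24 to -0.12 with MASM7. With the replicate number as a block, the edgeR adjusted p was 0.0435 with MFI8 and 0.0605 with MASM7. A transcribed processed pseudogene, Bnip3l-ps on chromosome 12, could take or give reads, and the table lists it with 11 to 24 counts per library, so the Bnip3l counts carry that uncertainty. On the TPM scale the ratio of Bnip3 to Bnip3l was 0.325 and 0.343 in the vehicle libraries, 0.294 and 0.311 in the MASM7 libraries and 0.253 and 0.32 in the MFI8 libraries, so the lower vehicle library was just above the highest treated one.

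Fundc1 encodes a small outer membrane receptor that binds LC3 and is regulated by phosphorylation under hypoxia. The gene, on chromosome X at 17556564 to 17572325, was at 42.4 and 44.4 CPM with vehicle, 38.5 and 41.1 CPM with MASM7 and 37.8 and 38.5 CPM with MFI8. Every treated library was below both vehicle libraries. Its log2 fold change was -0.18 with a standard error of 0.07 with MFI8 (edgeR adjusted p = 0.435) and -0.12 with a standard error of 0.07 with MASM7 (edgeR adjusted p = 0.543). With offsets for GC content and length these were -0.11 and -0.044, and with 1 library left out at a time the MASM7 value ran from -0.17 to -0.079.

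Fkbp8 encodes a receptor of the FK506-binding family that anchors BCL2 at mitochondria and binds LC3A. It lies on chromosome 8 at 70527724 to 70535328, plus strand, and was at 170 and 152 CPM with vehicle, 173 and 182 CPM with MASM7 and 161 and 161 CPM with MFI8. The vehicle libraries lay on either side of the MFI8 libraries, and both MASM7 libraries were above every other library. The log2 fold change was 0.0027 with a standard error of 0.06 with MFI8 (95% interval -0.14 to 0.14). With MASM7 it was 0.14 with a standard error of 0.06 (95% interval 2e-04 to 0.28), and the edgeR adjusted p was 0.489. With offsets for GC content and length the MASM7 value was 0.019, and with 1 library left out at a time it ran from 0.063 to 0.22. The exons of Fkbp8 share 4.95% of their bases with Kxd1 on the opposite strand.

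Pink1, the kinase that senses mitochondrial damage, was the least abundant member and the one whose vehicle libraries differed most. It lies on chromosome 4 at 138313409 to 138326307, minus strand, and was at 10.7 and 8.19 CPM with vehicle, 10.8 and 9.14 CPM with MASM7 and 10.5 and 9.33 CPM with MFI8. All 3 groups overlapped, and replicate 1 was the higher library in each. Its vehicle libraries differed by 0.38 on the log2 scale, beside a median of 0.08 over the 10 members and 0.12 over all genes tested. The log2 fold change was 0.07 with a standard error of 0.15 with MFI8 (95% interval -0.27 to 0.41) and 0.09 with a standard error of 0.15 with MASM7 (95% interval -0.25 to 0.42).

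Tbk1 encodes the kinase that phosphorylates p62 and optineurin on damaged mitochondria. The gene, on chromosome 10 at 121546455 to 121586787, was at 61.1 and 62 CPM with vehicle, 59.1 and 56.8 CPM with MASM7 and 58.6 and 59.6 CPM with MFI8. Both vehicle libraries were above all treated libraries, but by little. On the log2 scale the difference was -0.06 with a standard error of 0.06 with MFI8 (edgeR adjusted p = 0.778) and -0.09 with a standard error of 0.06 with MASM7 (edgeR adjusted p = 0.602). The offsets for GC content and length made these -0.025 and -0.051.

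Optn encodes optineurin, the ubiquitin adaptor that works with Tbk1. The gene, on chromosome 2 at 5020642 to 5064051, was at 18.3 and 18.2 CPM with vehicle, 16.9 and 19.9 CPM with MASM7 and 18.4 and 21 CPM with MFI8. The MASM7 libraries lay on either side of the vehicle libraries, and the lower MFI8 library was barely above them. Optn had a log2 fold change of 0.11 with a standard error of 0.11 with MFI8 (edgeR adjusted p = 0.755) and 0.0098 with a standard error of 0.11 with MASM7 (edgeR adjusted p = 0.982). Leaving out 1 library at a time moved the MFI8 value between 0.014 and 0.20. Sqstm1 was 13.7 and 12.5 times as abundant as Optn with vehicle on the TPM scale, 15.7 and 12.6 times with MASM7 and 17 and 17.1 times with MFI8.

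Mul1 encodes an outer membrane ligase that can mark mitofusins with ubiquitin. Mul1, on chromosome 4 at 138434671 to 138442265, was at 30.8 and 28.8 CPM with vehicle, 34.2 and 31.6 CPM with MASM7 and 31.1 and 34 CPM with MFI8. Every treated library was above both vehicle libraries, by as little as the gap from 30.8 to 31.1 CPM. Its log2 fold change was 0.13 with a standard error of 0.08 with MFI8 (edgeR adjusted p = 0.621) and 0.15 with a standard error of 0.08 with MASM7 (edgeR adjusted p = 0.552). Offsets for GC content and length brought these to 0.049 and 0.065, and leaving out 1 library at a time gave 0.065 to 0.19 with MFI8 and 0.088 to 0.20 with MASM7.

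Usp30 encodes the outer membrane deubiquitinase that trims ubiquitin chains from mitochondrial proteins. Usp30, on chromosome 5 at 114065461 to 114124720, was at 47.6 and 43.4 CPM with vehicle, 45.3 and 47.2 CPM with MASM7 and 41.2 and 46.1 CPM with MFI8. All groups overlapped. The log2 fold change was -0.05 with a standard error of 0.08 with MFI8 (95% interval -0.23 to 0.12) and 0.03 with a standard error of 0.08 with MASM7 (95% interval -0.15 to 0.20). Its exons share 5.43% of their bases with Alkbh2 and 2.66% with Svop, both on the opposite strand.

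**Figure D3:**
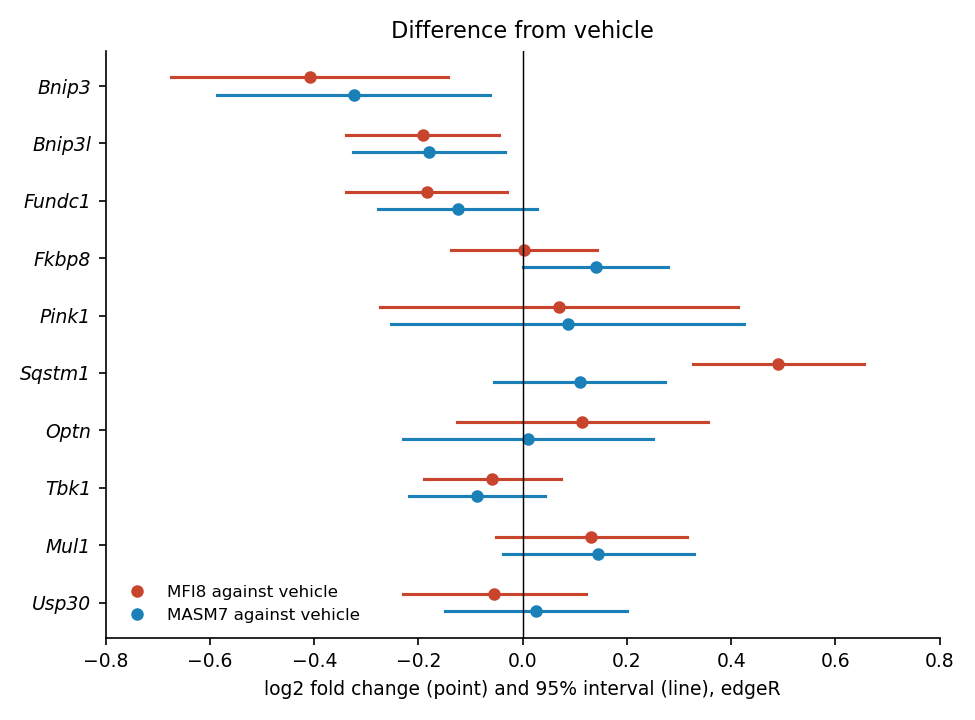
Log2 fold change of each member against vehicle with its 95% interval from edgeR, for MFI8 and for MASM7, with a vertical line at 0. The interval of Sqstm1 with MFI8 (0.33 to 0.65) lay farthest from 0, and those of Bnip3 and Bnip3l lay below 0 with each compound. No member passed the adjusted threshold in this fit, which had no replicate block.

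The compounds were then compared with each other, with the concentration difference given above. In MFI8 against MASM7, edgeR called none of the 10 members, where the background was 0%, and 1 member passed unadjusted, against 7.18% of all genes. This was Sqstm1, which was higher, as 4.23% of all genes were, and no member was lower, where 2.95% of all genes were. The DESeq2 Wald test and edgeR with the replicate block called Sqstm1 there, among 29 and 439 genes, and limma called no member. Libraries did not overlap for 2 members, against 39.2% of all genes. Sqstm1 was higher with MFI8 (19.6% of all genes) and Fkbp8 was lower (19.6% of all genes). For Sqstm1 the log2 fold change was 0.38 with a standard error of 0.07 (95% interval 0.22 to 0.54), with an edgeR adjusted p of 0.321 and a DESeq2 adjusted p of 0.00346. Without MFI8 replicate 1, with the lone MFI8 library assumed to vary like the other groups, the edgeR adjusted p was 0.0452. For Fkbp8 the log2 fold change was -0.14 with a standard error of 0.06 (95% interval -0.28 to 0.0022), with an edgeR adjusted p of 0.691. Over the other ways of processing the Fkbp8 value ran from -0.15 to -0.084, and with 1 library left out at a time from -0.17 to -0.099.

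For the other receptors the intervals of the difference between the compounds spanned 0. The interval of the difference was -0.35 to 0.18 for Bnip3, -0.16 to 0.13 for Bnip3l and -0.21 to 0.09 for Fundc1, on the log2 scale. The members' median log2 fold change was -0.01, beside -0.0015 over all genes.

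The rest of the pathway was taken from 7 lists of related genes. In edgeR without the replicate block, and with the filter on low counts, no gene of them was called in any comparison. The lists were chosen with earlier results of these data known, so their counts are descriptions. For these genes the lower library of a group is given first. Over all genes, 9.86% passed unadjusted with MFI8 (5.21% higher and 4.65% lower) and 10.2% with MASM7 (5.32% higher and 4.88% lower). In MFI8 against MASM7, 7.18% did (4.23% higher and 2.95% lower). The list counts given below stand beside those shares, and not every list's count is given for each comparison. Of 21 tested partners of the PINK1 pathway, 7 were higher and 14 lower with MFI8, with a median log2 fold change of -0.04, and 2 passed unadjusted. Both of those were higher: Huwe1, a ubiquitin ligase, at 725 and 753 CPM with vehicle and 810 and 854 CPM with MFI8 (edgeR adjusted p = 0.361), and Ubb, a polyubiquitin gene, with a log2 fold change of 0.17 (edgeR adjusted p = 0.47). With MASM7, 11 were higher and 10 lower, the median was 0.01, and 1 passed unadjusted. That was Tomm40, the pore of the outer membrane import machinery, at 129 and 137 CPM with vehicle and 148 and 167 CPM with MASM7 (log2 fold change 0.25, edgeR adjusted p = 0.466). The next by p was Marchf5, an outer membrane ubiquitin ligase, at a log2 fold change of -0.12 (edgeR adjusted p = 0.531).

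Of 18 other receptors and adaptors tested, 5 were higher and 13 lower with MFI8 (median -0.01), and 6 were higher and 12 lower with MASM7 (median -0.06). With MFI8, 2 passed unadjusted. Fundc2, the paralog of Fundc1, had a log2 fold change of -0.17 with a standard error of 0.06 (edgeR adjusted p = 0.413), close to the -0.18 of Fundc1 itself. Nipsnap1, a matrix protein exposed on damaged mitochondria, had a log2 fold change of 0.28 with a standard error of 0.10 (edgeR adjusted p = 0.425). With MASM7, 4 passed unadjusted, 1 higher and 3 lower. The smallest p belonged to Tbc1d15, a regulator of Rab7, at -0.20 (edgeR adjusted p = 0.473) and Cisd2, an iron-sulphur protein of the endoplasmic reticulum and outer membrane, at -0.15 (edgeR adjusted p = 0.477).

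Among 13 genes of the LC3 and GABARAP family and the early kinase complex, which the members recruit, 10 were higher and 3 lower with MFI8, none passed unadjusted and the median was 0.04. Atg9a, a lipid scramblase of the growing autophagosome, was at 0.19 (edgeR adjusted p = 0.535) and Gabarapl1 at 0.12 (edgeR adjusted p = 0.556). With MASM7, 6 were higher and 7 lower and 2 passed unadjusted, Rb1cc1 (FIP200) at -0.18 (edgeR adjusted p = 0.476) and the kinase gene Ulk2 at -0.21 (edgeR adjusted p = 0.479). In MFI8 against MASM7, Ulk2 was at 0.33 (edgeR adjusted p = 0.509) and Rb1cc1 at 0.22 (edgeR adjusted p = 0.544).

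Of 12 outer membrane substrates and dynamics genes, 5 were higher and 7 lower with MFI8 (median -0.03), and 6 were higher and 6 lower with MASM7 (median -0.02), with 2 past the unadjusted threshold in each. With MFI8 these were the Drp1 receptor genes Mief2 at 0.25 (edgeR adjusted p = 0.464) and Mff at -0.14 (edgeR adjusted p = 0.495). With MASM7 they were Rhot2, which encodes the mitochondrial transport GTPase Miro2, at 0.18 (edgeR adjusted p = 0.479) and Mfn1 at -0.12 (edgeR adjusted p = 0.488).

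Lists of known targets of HIF and NRF2 were read because Bnip3 and Sqstm1 are known targets of these factors too. Of 15 HIF targets tested, 5 were higher and 10 lower with MFI8 (median -0.09), and 3 passed unadjusted, all lower, where 4.65% of all genes were lower at that level. P4ha1, a collagen prolyl hydroxylase, was at -0.18 (edgeR adjusted p = 0.387) and Kdm3a, a histone demethylase, at -0.18 (edgeR adjusted p = 0.425). With MASM7, 9 were higher and 6 lower (median 0.03), and the 3 that passed unadjusted were again lower, with Kdm3a at -0.20 (edgeR adjusted p = 0.473) and Pdk1, which restrains pyruvate entry into mitochondria, at -0.37 (edgeR adjusted p = 0.477). The list median and the genes with the smallest p thus differed in sign with MASM7.

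Of 15 NRF2 targets tested, 13 were higher and 2 lower with MFI8 (median 0.14), and 6 passed unadjusted, all higher, where 5.21% of all genes were higher at that level. Slc7a11, the cystine importer, was at 11.7 and 12.8 CPM with vehicle and 19.8 and 24.3 CPM with MFI8, a log2 fold change of 0.86 with a standard error of 0.12 and an edgeR adjusted p of 0.0924. Hmox1, which breaks down haem, was at 35 and 41.4 CPM with vehicle and 68.5 and 121 CPM with MFI8, a log2 fold change of 1.31 with a standard error of 0.22 and an edgeR adjusted p of 0.0924. For neither gene did the MFI8 libraries overlap those of vehicle, and both sat at the same adjusted p as Sqstm1, short of the threshold. With MASM7, 9 were higher and 6 lower (median 0.01), and Prdx1, a peroxiredoxin, at -0.15 (edgeR adjusted p = 0.473) was the 1 that passed unadjusted. In MFI8 against MASM7, 13 of the 15 were higher with MFI8 (median 0.14) and 7 passed unadjusted, all higher, where 4.23% of all genes were higher at that level, with Slc7a11 at 0.77 (edgeR adjusted p = 0.165).

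Of 13 tested transcription factors that act upstream of mitophagy genes, 9 were higher and 4 lower with MFI8 (median 0.04), and 4 passed unadjusted. Nfe2l2, which encodes NRF2 itself, was at 92.8 and 104 CPM with vehicle and 75.5 and 78.6 CPM with MFI8, a log2 fold change of -0.35 with a standard error of 0.07 and an edgeR adjusted p of 0.202. Its transcript was lower where most of its listed targets and Sqstm1 were higher. None of them passed the adjusted threshold in edgeR without the replicate block and with the filter on low counts. NRF2 activity was not tested. Atf4, a factor of the integrated stress response, was at 0.22 with MFI8 (edgeR adjusted p = 0.361) and 0.13 with MASM7 (edgeR adjusted p = 0.505). Hif1a was at -0.13 with MFI8 (edgeR adjusted p = 0.468) and -0.14 with MASM7 (edgeR adjusted p = 0.477). In MFI8 against MASM7, Nfe2l2 was at -0.21 with a standard error of 0.07.

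The genes of smallest p in these lists in MFI8 against MASM7 were, beside those given, as follows on the log2 scale. Hmox1 was at 0.94 (edgeR adjusted p = 0.336), Tomm40 at -0.20 and Parl, the inner membrane protease that cleaves PINK1, at -0.13. Tollip, a ubiquitin-binding adaptor, was at 0.19 and Phb2, an inner membrane receptor, at -0.13. Among the dynamics genes, Mief1 was at 0.08 and Opa1, the inner membrane fusion GTPase, at 0.07, and none of that list passed unadjusted. Ldha, lactate dehydrogenase, was at -0.16, the HIF target Ankrd37 at -0.74 and the lysosomal gene regulator Mitf at -0.42. Abcc1, an efflux pump on the NRF2 list, was at 0.11 with MASM7 against vehicle.

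The members with the largest differences were followed through other ways of processing the counts. Without the filter on low counts, edgeR gave Sqstm1 a log2 fold change of 0.50 with MFI8 and an adjusted p of 2.38e-13, and it called 256 genes in all. With only the vehicle and MFI8 libraries in the fit, the edgeR adjusted p was 0.218. Across all alternatives the log2 fold change of Sqstm1 stayed between 0.39 and 0.58, and that of Bnip3 between -0.56 and -0.28.

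**Figure D4:**
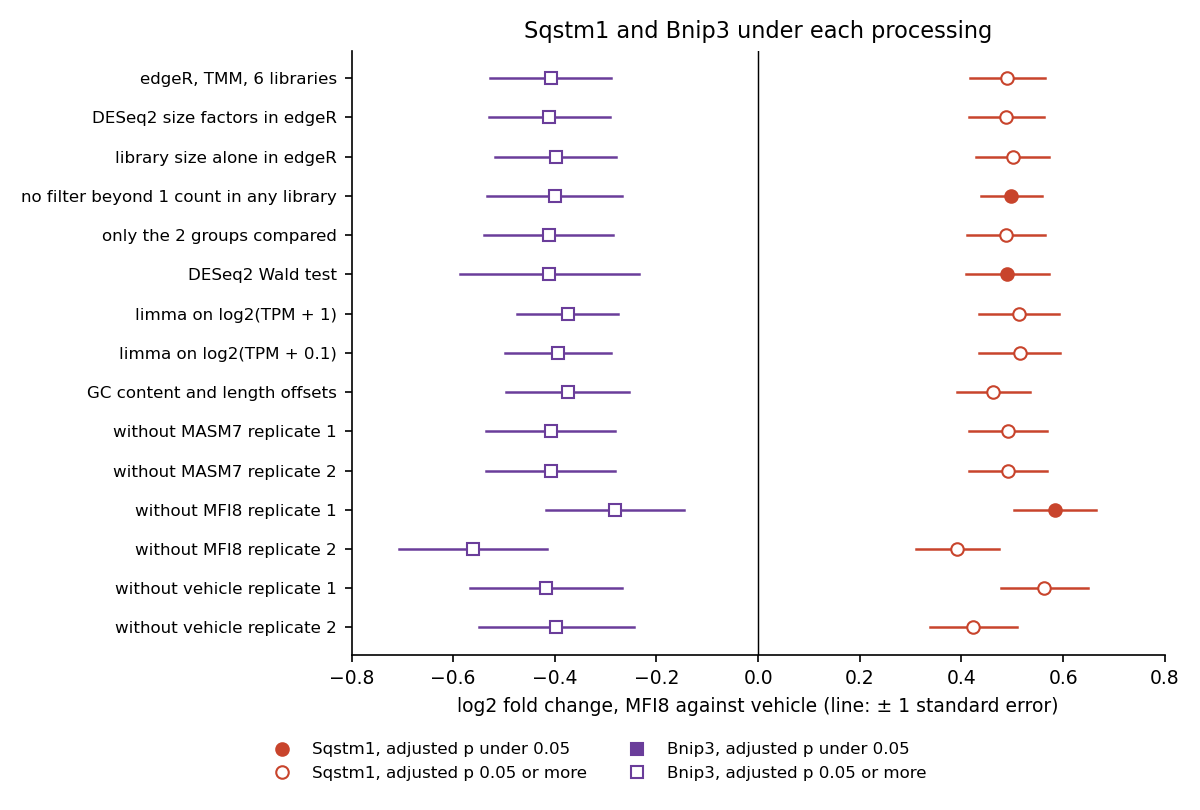
Log2 fold change of Sqstm1 and Bnip3 with MFI8 against vehicle under 15 ways of processing, with lines for 1 standard error and filled symbols where the adjusted p was under 0.05. Sqstm1 stayed between 0.39 and 0.58 and was filled in 3 rows, and Bnip3 stayed between -0.56 and -0.28 and was open in every row drawn. The 3 fits with a replicate block are not drawn, and among them Sqstm1 passed in 3 and Bnip3 in 1. DESeq2 with the block gave Bnip3 no adjusted p.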

How the data were processed

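PolyA RNA of 6 libraries was sequenced. Per the labels and the study's methods, the authors demultiplexed with bcl2fastq, trimmed with Trimmomatic, aligned to mm10/GRCm38 with STAR, counted exonic reads with featureCounts and normalized with DESeq2. They deposited raw counts per gene and TPM values, both used here, and normalized counts, which were not used. The methods give a version for DESeq2, and the other tools' versions, the annotation release and the strand setting are not given in the sources used here.

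Groups came from the treatment labels. Counts were fitted in edgeR 4.0.16 (R 4.3.3) with TMM normalization, filterByExpr (14290 of 55291 genes kept, all 10 members among them) and 1 coefficient per group over all 6 libraries. Quasi-likelihood F tests were two-sided, and p-values were adjusted by Benjamini and Hochberg's method over the whole table, with a threshold of 0.05. Dividing each absolute log2 fold change by the root of its F statistic gave the standard error, and the fit's common dispersion was 0.00394. CPM used TMM factors. The script was tested on simulated data.

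Alternatives were DESeq2 size factors, library size alone, no filter beyond 1 count, only the groups compared, the DESeq2 1.42.0 Wald test, limma 3.58.1 on log2(TPM + 1) and log2(TPM + 0.1), offsets for GC content and length, a replicate block, and each library left out. Named genes were all 10 members, the 2 genes of smallest unadjusted p per list and comparison, any list gene past the threshold, and Mfn1 and Mfn2. A further gene named by the rule is not reported here. The members and lists were chosen with earlier results of these data known. Gene positions were from GENCODE vM21 on GRCm38 and start regions from RefSeq on GRCm38.p6.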

Additional observations from a re-analysis of the deposited data

How the results depend on the processing

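With 2 libraries per group the number of genes past an adjusted p of 0.05 depended on the test, and the cause was not tested. In the order MFI8 against vehicle, MASM7 against vehicle and MFI8 against MASM7, edgeR called 0 genes in each. Without the filter it called 256, 127 and 168 genes, with 1 member (Sqstm1) in the first and 1 in the last. The DESeq2 Wald test called 48, 2 and 29 genes, again with 1 member, Sqstm1, in the first and 1 in the last. With only the groups compared, edgeR called 1 gene for MASM7 and 2 genes for MFI8 against MASM7. Leaving out 1 library at a time gave 0 to 26, 0 to 2 and 0 to 24 genes, 0 to 1, 0 and 0 to 1 members, and median log2 fold changes of the members of -0.092 to 0.051, -0.058 to 0.053 and -0.059 to 0.021. With limma on log2(TPM + 0.1) the median in MFI8 against MASM7 was 0.03.

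The replicate numbers pair no libraries by any label, and the correlation of the differences between numbers was 0.152 for vehicle and MFI8, 0.188 for vehicle and MASM7 and 0.165 for MASM7 and MFI8, over 14290 genes. With the replicate number as a block, edgeR called 720, 554 and 439 genes, with 3 members for MFI8 (Sqstm1, Bnip3 and Bnip3l), 0 for MASM7 and 1 (Sqstm1) for MFI8 against MASM7. DESeq2 with the block called 220, 205 and 106 genes, with 1 member, Sqstm1, in the first. In the comparisons with vehicle, that fit gave an adjusted p only to Sqstm1 and Fkbp8 among the members. The other members could not be called there. Offsets for GC content and length called none alone, where 2, 1 and 1 members passed at an unadjusted p under 0.05 in place of 4, 3 and 1, and with the block 610, 127 and 656 genes, with 1 member (Sqstm1) in the first and 1 in the last.

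Of 330 member values under these alternatives, 297 kept their direction and side of the threshold, 11 came to pass it and 22 turned, all of them small. A member without an adjusted p was counted as not past the threshold. With MFI8, Pink1 was at -0.0081 under GC and length offsets, and Fkbp8 at -0.0002 with only the groups compared, -0.066 with the offsets and -0.065 with offsets and block. With MASM7, Pink1 was at -0.0091 and -0.0088 and Usp30 at -0.0571 and -0.0569 under the offsets without and with block, and Optn at -0.0009 with library size alone and -0.011 and -0.012 with limma at TPM + 1 and TPM + 0.1. In MFI8 against MASM7, library size alone, limma at TPM + 1 and limma at TPM + 0.1 gave 0.0055, 0.031 and 0.0333 for Pink1, 0.0094, 0.0322 and 0.0327 for Bnip3l and 0.0082, 0.0265 and 0.0273 for Mul1, and the offsets gave 0.0009 and, with block, 0.01 for Pink1. Over the 6 libraries left out in turn, 18 of 180 values turned. The ranges were, with MFI8, -0.11 to 0.27 for Pink1, -0.074 to 0.086 for Fkbp8 and -0.14 to 0.024 for Usp30. With MASM7 they were -0.094 to 0.28 for Pink1, -0.11 to 0.12 for Optn and -0.0398 to 0.093 for Usp30. In MFI8 against MASM7 they were -0.13 to 0.11 for Pink1, -0.24 to 0.043 for Bnip3, -0.0735 to 0.0525 for Bnip3l, -0.0077 to 0.23 for Optn and -0.0803 to 0.049 for Mul1. Among the members, Pink1, with 206 to 320 counts per library, and Bnip3, with 207 to 337, had the fewest counts.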
